A study of Mus musculus with 84 samples.

Results

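Spinal cord astrocytes were compared at the onset of experimental autoimmune encephalomyelitis (EAE), a mouse model in which immunization against a myelin protein leads to inflammation and demyelination of the spinal cord. The comparison took the 5 libraries titled as spinal cord astrocytes of mice at clinical score 1 (E1, a limp tail) and the 5 of unimmunized control mice (C), 10 of the 66 libraries of the EAE experiment and of the 84 of the whole series. All mice were C57BL/6J females, given as 10 weeks old. The study's methods give this age for the time of immunization, so E1 mice were older when sampled. They do not state the age of C mice at sampling. E1 mice had received the peptide MOG35-55 in complete Freund's adjuvant together with pertussis toxin, which the C mice had not, so that the effects of disease, adjuvant and toxin cannot be told apart. Cells of the cervical and thoracic cord had been sorted as CD11B- CD45- ACSA-2+ GLAST- events. Cells of a pair of mice could be joined in 1 library, so a library is not always 1 animal. Of the 10 titles only that of E1 replicate 2 carries a further number, and what it stands for is not given. Whether the 5 libraries of a group stand for separate preparations is not stated for each. P-values measure spread between libraries and not between mice. Those of edgeR use a spread per gene estimated over all 66 libraries, and those of permutation tests use the 10 libraries alone. For 1 E1 library, replicate 1, the title says spinal cord and another label says hindbrain.

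Astrocytes take up glutamate and potassium around synapses, couple to each other through gap junctions and contact blood vessels and the nodes of axons. Under inflammation they become reactive. Interferons bind their receptors and activate kinases of the JAK family, which phosphorylate STAT factors; these bind DNA elements called GAS as dimers and, together with IRF9, elements called ISRE, from which antiviral, antigen-presentation and GTPase genes are transcribed. Cytokines of the interleukin-6 family act through STAT3, and interleukin-1 and TNF act through NF-kappaB.

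Each of the 10 libraries held 1857684 to 4144607 counted reads, and expression is given as counts scaled to a common library total (CPM) after TMM normalisation. A count of 3 in a library corresponded to 0.747 to 1.49 CPM, a limit that covers counting error only because reads were counted without molecular identifiers. Genes of astrocytes were expressed at high levels in all 10 libraries, among them *Atp1b2*, which encodes the sorted antigen ACSA-2, at 6472, 7001, 5175, 6634 and 7706 CPM in C replicates 1 to 5 and 2811, 9215, 1332, 1779 and 2323 CPM in E1 replicates 1 to 5. The summed level of 26 Hox genes, which mark the axial level of the cord, was 307 to 676 CPM in E1 and 756 to 1320 CPM in C, and at most 106 CPM in any hindbrain library. E1 replicate 1 had 581 CPM, within the range of the other E1 libraries of the cord and above every hindbrain library, as its title has it. Markers of oligodendrocytes were detected too, and 12 of them made up 2.27% of the CPM in C and 4.27% in E1. Among the E1 libraries, replicate 2 had the fewest detected genes (11113) and the highest mean level of 45 astrocyte markers, and replicate 3 had the lowest mean of these markers, the largest oligodendrocyte sum, and a last number in its title (27) far from those of the other 9 libraries (57 or more). Where leaving out 1 library moved the number of DEGs in a gene list by over 1.5 times, the number without it is given beside it. Numbers of 1 or 2 DEGs in a list became 0 to 4 when 1 library was left out, and most of these are not given singly.

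Over all 23324 genes tested, 1440 (6.17%) were differentially expressed (DEGs) at E1, defined by an adjusted p under 0.05 in the two-sided quasi-likelihood test of edgeR and a log2 fold change past 1 in either direction. Expression was higher for 582 genes (2.5%) and lower for 858 (3.68%), and the median log2 fold change of all tested genes was 0. Numbers of DEGs in gene lists are to be read against these shares, which a single DEG in many lists does not clearly exceed. An unadjusted p under 0.05 in edgeR was reached by 6107 of the 23324 genes, against which list counts at that limit are to be read. For the other comparisons this number is not reported here. Of the higher genes 280 had 5 E1 values all above the 5 C values, and of the lower genes 343 had all 5 below. For 111 of the higher genes no read was counted in any C library, and for 117 of the lower genes none in any E1 library. The 8 genes that rose with the smallest p were *C4b*, *Serpina3n*, *Irf9*, *Irf1*, *Bst2*, *Ifit3*, *Iigp1* and *Lbh*, and the 8 that fell with the smallest p were *Zic1*, *Tagln3*, *Pax3*, *Nat8*, *Slc30a10*, *Gria1*, *Btbd17* and *Vwa1*. The number of DEGs was 954 without E1 replicate 3 and 1822 without E1 replicate 2, and 847 in a fit of the 10 libraries alone, in which 55.5% of DEGs were higher against 40.4% in the fit of all libraries.

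**Figure D1:**
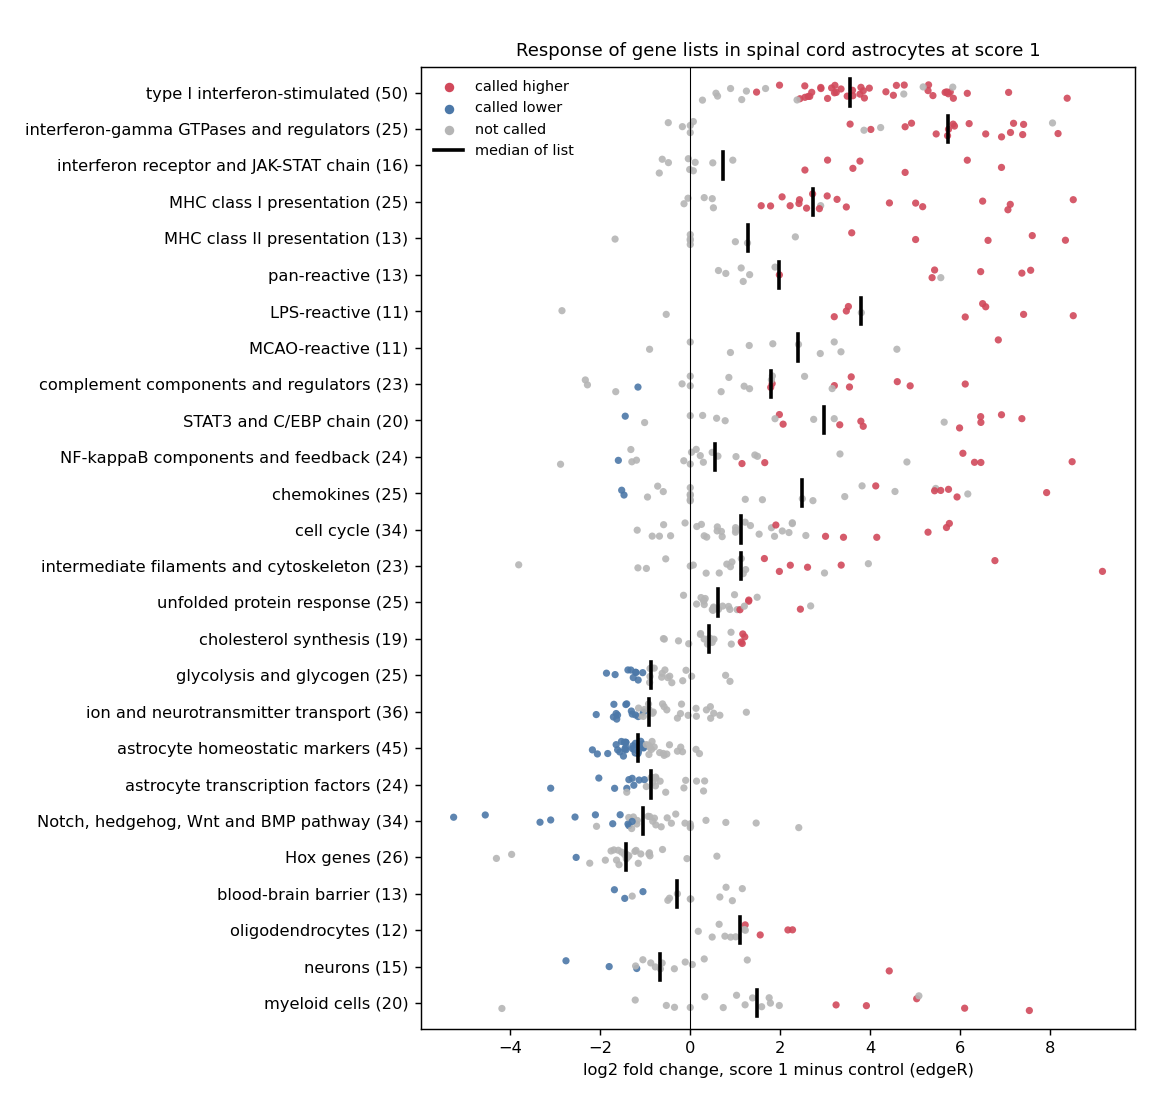
Log2 fold change (E1 minus C, x axis) of every tested member of 26 gene lists (rows, number of tested members in brackets), with DEGs that were higher in red, DEGs that were lower in blue, other genes in grey and the median of each list as a black bar. The interferon and MHC class I lists lie to the right, with medians of 3.55, 5.72 and 2.72, and the astrocyte and Hox lists lie to the left, with medians of -1.16 and -1.43. Genes without a read in one group have fold changes that depend on the prior count of the fit.

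Because interferon-responsive genes led the response, the stretches of 160 bases before the transcription start of 8 of them are shown (RefSeq, GRCm38.p6, 5′ to 3′ on the strand of the gene). Capitals mark matches to an ISRE, spelled GAAA, any 2 bases and again GAAA, or to a GAS, spelled TTCNNNGAA, searched on both strands, where neighbouring matches run together. *Ifit3*, *Isg15*, *Bst2*, *Gbp2*, *Igtp* and *B2m* hold an ISRE match, and *Bst2*, *Igtp*, *Irf1* and *Psmb8* a GAS match. RefSeq gives a second start of *Irf1*, in whose window neither motif was matched. Starts are those of RefSeq, which can lie inside or outside the gene spans of Ensembl given further on.

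Ifit3 (chr19:34583369-34583528, plus strand): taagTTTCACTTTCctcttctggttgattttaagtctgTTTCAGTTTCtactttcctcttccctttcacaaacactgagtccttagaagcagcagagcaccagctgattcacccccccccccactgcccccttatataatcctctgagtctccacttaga
Isg15 (chr4:156200819-156200978, minus strand): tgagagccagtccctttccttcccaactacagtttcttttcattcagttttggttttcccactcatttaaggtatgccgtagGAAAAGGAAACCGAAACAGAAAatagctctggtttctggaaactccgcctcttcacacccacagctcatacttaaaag
Bst2 (chr8:71537473-71537632, minus strand): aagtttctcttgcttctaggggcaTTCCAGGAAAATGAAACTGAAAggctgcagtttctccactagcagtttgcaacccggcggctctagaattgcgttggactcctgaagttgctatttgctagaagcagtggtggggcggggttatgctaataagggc
Gbp2 (chr3:142620503-142620662, plus strand): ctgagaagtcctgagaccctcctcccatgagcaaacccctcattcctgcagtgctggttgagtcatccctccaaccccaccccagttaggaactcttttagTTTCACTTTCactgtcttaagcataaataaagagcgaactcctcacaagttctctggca
Igtp (chr11:58199396-58199555, plus strand): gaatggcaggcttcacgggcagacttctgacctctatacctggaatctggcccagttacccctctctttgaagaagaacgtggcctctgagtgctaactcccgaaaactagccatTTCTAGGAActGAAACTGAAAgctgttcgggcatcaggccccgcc
B2m (chr2:122147527-122147686, plus strand): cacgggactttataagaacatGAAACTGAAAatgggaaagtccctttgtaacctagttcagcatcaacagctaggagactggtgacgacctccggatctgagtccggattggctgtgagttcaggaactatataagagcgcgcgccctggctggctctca
Irf1 (chr11:53769854-53770013, plus strand): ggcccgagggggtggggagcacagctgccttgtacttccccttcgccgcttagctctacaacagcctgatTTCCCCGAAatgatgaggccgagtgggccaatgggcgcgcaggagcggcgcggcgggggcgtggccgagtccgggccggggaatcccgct
Psmb8 (chr17:34198035-34198194, plus strand): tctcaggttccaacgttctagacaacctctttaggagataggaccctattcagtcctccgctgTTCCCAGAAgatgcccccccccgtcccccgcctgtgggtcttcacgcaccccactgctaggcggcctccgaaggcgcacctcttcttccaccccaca

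The first ISRE match lay 156 bases before the start of *Ifit3*, 139 before that of *B2m*, 130 before that of *Bst2*, 78 before that of *Isg15*, 59 before that of *Gbp2* and 34 before that of *Igtp*. GAS matches lay 136, 97, 90 and 45 bases before the starts of *Bst2*, *Psmb8*, *Irf1* and *Igtp*. Of 27025 genes with a window of 250 bases before to 50 after the start, 3.99% held an ISRE match and 9.55% a GAS match. In the window of *Tap1*, a peptide transporter gene that shares its upstream region with *Psmb9*, neither motif was matched. Windows were at hand for 432 of the 582 higher genes, under 80% of them, so shares were not compared. Within the MHC class I list, with windows for 21 of 25 members, 5 held an ISRE and 2 a GAS match, against 4 and 8 of 39 matched homeostatic astrocyte markers (of 45) and 1 and 2 of 13 pan-reactive genes. A match is a description of the letters and not evidence of binding.

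In the interferon signalling chain itself some genes were higher at E1. Of its 16 tested members, which comprise receptors, kinases, STATs and IRFs, 7 were higher, none lower and 9 not called (median log2 fold change 0.72). Among the 9, chosen here after their values were seen, the interferon-gamma receptor gene *Ifngr1* (48.4 ± 9.54 CPM in C and 30.1 ± 6.12 CPM in E1, adjusted p = 0.15 from edgeR) and the kinase gene *Jak1* (172 ± 10.5 and 112 ± 38.4 CPM, adjusted p = 0.020 from edgeR, n = 5 each) had all E1 values below all C values. *Irf1* (ENSMUSG00000018899, chromosome 11, 53770014 to 53778374), a transcription factor induced early by interferon, had 29.7, 26.9, 9.46, 3.14 and 14.97 CPM in C and 181, 234, 859.6, 353 and 653 CPM in E1 (log2 fold change 4.78, SE 0.52, adjusted p = 7.8e-10). All E1 values lay above all C values, and the group means differed 27.4-fold. *Irf9* (ENSMUSG00000002325, chromosome 14, 55603571 to 55610030), the DNA-binding partner of the STAT factors at the ISRE, was at 10.9, 30.8, 11.2, 15.7 and 33.2 CPM in C and 141, 125, 233, 167 and 178 in E1 (log2 fold change 3.05, SE 0.33, adjusted p = 7.8e-10). *Irf7*, which amplifies type I interferon production, was at 2.01 CPM or less in every C library and at 21.9 to 94.02 CPM in E1 (log2 fold change 6.16, SE 0.85, adjusted p = 2.0e-07).

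Type I interferon-stimulated genes rose as a group, with 39 of 50 tested members higher and none lower, against 2.5% higher over all genes. Their median log2 fold change was 3.55, or 3.10 with genes that had no read in C at their bound, and 30 of the 50 did not overlap between groups against 1.96% of all genes. *Ifit3* (ENSMUSG00000074896, chromosome 19, 34583531 to 34588731), an RNA-binding antiviral protein, had 11.4, 5.25, 1.72, 2.20 and 7.02 CPM in C and 109, 127, 421, 215 and 642 CPM in E1 (log2 fold change 5.85, SE 0.66, adjusted p = 1.2e-09). *Bst2* (ENSMUSG00000046718, chromosome 8, 71534255 to 71537456), which tethers virions to the cell surface, had 8.43, 25.6, 17.5, 10.99 and 16.4 CPM in C and 214, 275, 1240, 413 and 989 CPM in E1 (log2 fold change 5.30, SE 0.59, adjusted p = 8.6e-10). E1 replicate 3 was the highest for *Bst2* and replicate 5 for *Ifit3*, and the lowest E1 value of each was several times the highest C value. *Isg15* (ENSMUSG00000035692, chromosome 4, 156199424 to 156200818), a ubiquitin-like modifier, was at 0, 8.53, 1.43, 2.51 and 2.34 CPM in C and at 51.03, 85.2, 152, 77.1 and 292 CPM in E1 (log2 fold change 5.39, SE 0.75, adjusted p = 2.6e-07). *Ifit1* rose by 5.67 and *Dtx3l*, a ubiquitin ligase, by 3.98 on the log2 scale, both without overlap. *Slfn8*, of the Schlafen family, had no read in C and 0.343 to 29.8 CPM in E1, at least 12.4-fold higher. The number of higher genes in this list was 33 to 42 under every alternative setting, and 35 to 39 when 1 library was left out.

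Immunity-related and guanylate-binding GTPases, induced above all by interferon-gamma, had the largest median change of the 47 lists examined. Of 25 tested genes 17 were higher and none lower, with a median log2 fold change of 5.72 (3.86 with genes at 0 at their bound). *Iigp1* (ENSMUSG00000054072, chromosome 18, 60376027 to 60392634), a GTPase that attacks the vacuoles of intracellular parasites, had 0.496, 0, 4.87, 1.57 and 5.62 CPM in C and 191, 489.5, 547, 239 and 704 CPM in E1 (log2 fold change 7.41, SE 0.84, adjusted p = 1.2e-09). All 5 E1 values lay far above the C values, which were near the limit of counting. *Igtp* (ENSMUSG00000078853, chromosome 11, 58199556 to 58207591), a GTPase of the same family, was at 11.4, 9.51, 4.01, 16.6 and 15.4 CPM in C and at 286, 582, 1227, 559 and 669.7 CPM in E1 (log2 fold change 5.87, SE 0.69, adjusted p = 2.5e-09). Its gene shares part of its span with *Irgm2*, which changed alike (5.84 ± 0.79 on the log2 scale), so that reads of the pair may not be fully separated. *Gbp2*, a guanylate-binding protein counted among the LPS-induced astrocyte genes, was at 0, 0, 0, 0.942 and 2.34 CPM in C and 19.9, 105, 36.3, 33.9 and 105 in E1 (log2 fold change 6.57, SE 1.02, adjusted p = 3.4e-06), and *Gbp7* rose by 4.01. A further 3 members of the GTPase families, *Gm12250*, *Gm4951* and *Gm4841*, had 2, 1 and 0 reads over the 5 C libraries. Their E1 levels were 24.9, 12.8, 154, 44.5 and 121 CPM for *Gm12250* and 17.4, 78.4, 28.8, 25.4 and 17.99 CPM for *Gm4951*, ratios of 491 (95% counting interval 136 to 4060) and 413 (73.8 to 16300). For *Gm4841* the level in E1 was 2.74 to 33.7 CPM, at least 10.6-fold higher. *F830016B08Rik*, without a read in C, was at least 11.5-fold higher.

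**Figure D2:**
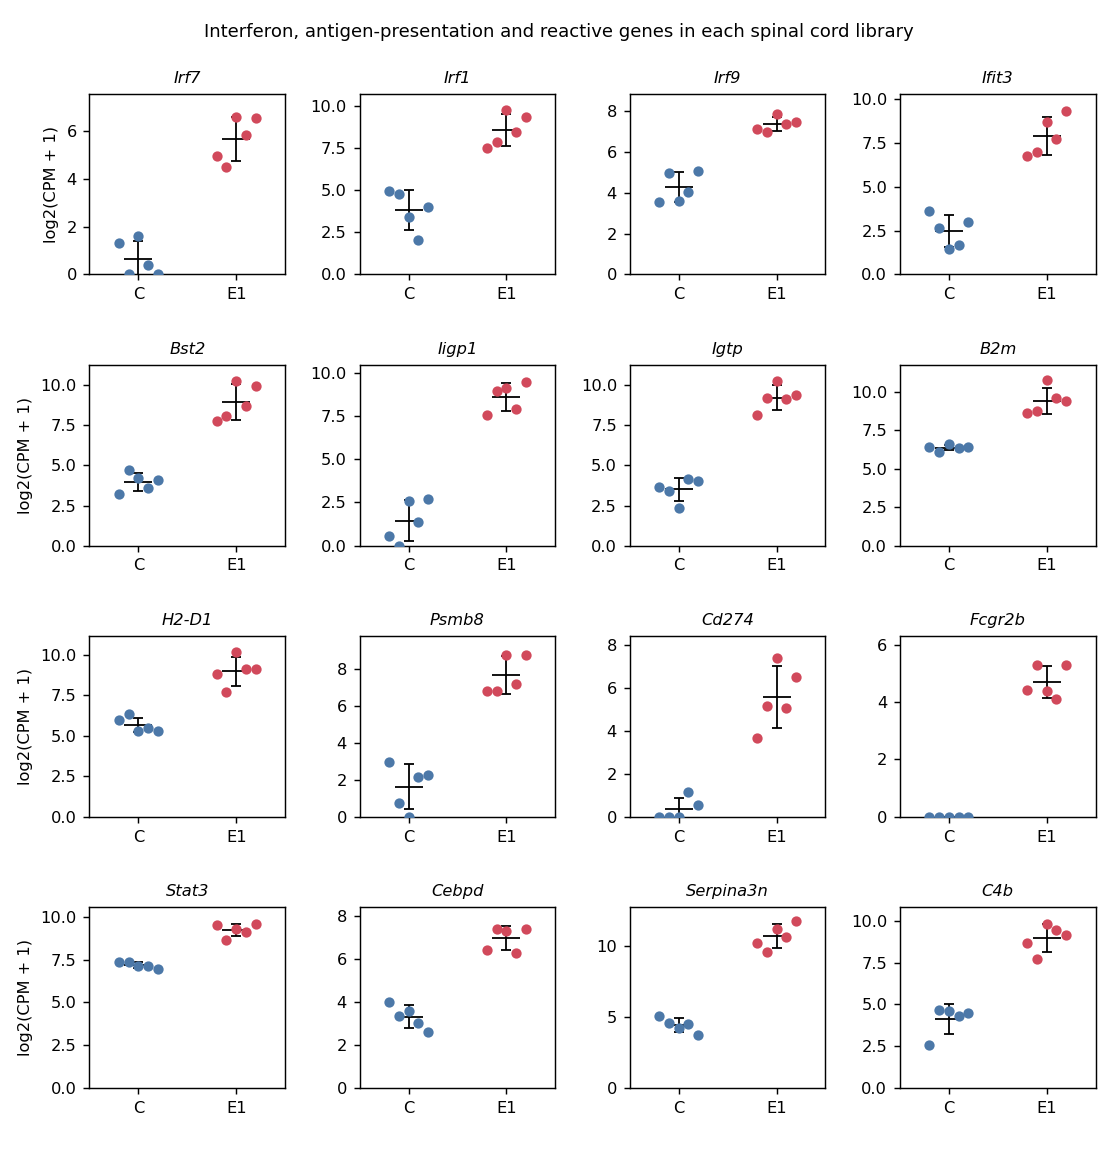
Expression as log2(CPM + 1) of 16 interferon, antigen-presentation and reactive genes in each of the 5 C (blue) and 5 E1 (red) libraries, with the mean and SD as black bars. For each of the 16 genes all 5 E1 libraries lie above all 5 C libraries.

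Antigen presentation by MHC class I moved with the interferon genes. Of 25 tested genes, which span heavy chains, the light chain, peptide transporters and immunoproteasome subunits, 19 were higher and none lower (median log2 fold change 2.72, or 2.43 with bounds). *B2m* (ENSMUSG00000060802, chromosome 2, 122147686 to 122153083), the light chain, had 83.8, 68.2, 94.3, 81.01 and 84.7 CPM in C and 398, 426, 1716, 755 and 664 CPM in E1 (log2 fold change 3.26, SE 0.37, adjusted p = 1.5e-09), a 9.60-fold mean rise. The heavy chain gene *H2-D1* (ENSMUSG00000073411, chromosome 17, 35262730 to 35267499) was at 60.98, 78.4, 38.7, 43.02 and 38.8 CPM in C and 442, 204, 1126, 552 and 556 CPM in E1 (log2 fold change 3.47, SE 0.43, adjusted p = 1.2e-08), and *H2-K1*, already at 232 to 349 CPM in C, reached 693 to 2773 CPM (2.42 ± 0.34). These heavy chains are near-identical in places and their reads may be exchanged. *Psmb8* (ENSMUSG00000024338, chromosome 17, 34197721 to 34201454), an immunoproteasome subunit, went from 6.94, 0.656, 0, 3.45 and 3.74 CPM in C to 109.8, 111, 438, 144 and 439.7 CPM in E1 (log2 fold change 6.50, SE 0.74, adjusted p = 1.5e-09), and *Tap1*, the peptide transporter, rose by 4.43. *Nlrc5*, the transactivator of this gene set, had 2 reads in C and 13.4, 10.03, 33.97, 35.97 and 32.9 CPM in E1, a ratio of 175 (95% counting interval 48.1 to 1450). The non-classical *H2-T23* had no read in C and 5.23, 10.5, 33.2, 14.04 and 14.3 CPM in E1, at least 13.6-fold higher. Replicate 3 was the highest E1 library for *B2m*, *H2-D1*, *H2-K1*, *Tap1* and *H2-T23*.

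MHC class II genes were detected at much lower levels. Of 13 tested genes 5 were higher and none lower (median log2 fold change 1.27). *H2-Aa* (ENSMUSG00000036594, chromosome 17, 34282744 to 34287823), a class II alpha chain, was not counted in any C library and was at 2.99, 23.2, 5.92, 24.7 and 12.1 CPM in E1, at least 12.1-fold higher, and *H2-Eb1* was at 5.48, 6.38, 5.53, 13.4 and 10.1 CPM, at least 7.20-fold higher. *Cd74*, the invariant chain, had no read in C and 0, 8.66, 4.34, 5.82 and 2.25 CPM in E1, 1 library of which was at 0. *Ciita*, the class II transactivator, had no read in any of the 10 libraries, which allows at most 3 counts in each. Myeloid cells also express class II genes, and the 20 myeloid markers summed to 15.1 to 45.1 CPM in C and 49.8 to 173 CPM in E1. Their part in the class II values was not tested. Of the checkpoint and receptor genes, *Cd274*, which encodes PD-L1, had 0, 0, 0, 1.26 and 0.468 CPM in C and 11.7, 35.1, 169, 32.2 and 88.6 CPM in E1 (log2 fold change 7.39, SE 1.01, adjusted p = 1.7e-07), highest in replicate 3. *Fcgr2b* (ENSMUSG00000026656, chromosome 1, 170958617 to 170976547), an inhibitory Fc receptor, was the gene with the largest fitted change among those named by size. It had no read in C and 20.2, 38.3, 19.8, 16.1 and 37.7 CPM in E1, at least 23.2-fold higher, while the white-cell marker *Ptprc* was at 3.98 to 21.9 CPM in E1.

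Genes of reactive astrocytes were examined in the published lists that the study itself used. Of 13 pan-reactive genes 6 were higher and none lower (median log2 fold change 1.98, or 1.32 with genes that had no read in C at their bound), of 11 LPS-reactive genes 8 were higher and none lower (3.80, or 3.77 with bounds), and of 11 genes induced by arterial occlusion (MCAO) 1, the transporter gene *Slc10a6*, was higher and none lower (2.41, or 1.31 with bounds). *Serpina3n* (ENSMUSG00000021091, chromosome 12, 104406729 to 104414329), a secreted protease inhibitor, had 32.2, 23.3, 17.5, 21.98 and 12.6 CPM in C and 1214, 767, 2386, 1639 and 3428 CPM in E1 (log2 fold change 6.46, SE 0.59, adjusted p = 6.0e-13), and shared with *C4b* the smallest adjusted p of all genes. Its mean was 87.7-fold above C. *Gfap* (ENSMUSG00000020932, chromosome 11, 102887336 to 102900912), the intermediate filament of reactive astrocytes, had 47.6, 26.9, 69.1, 50.6 and 50.1 CPM in C and 159, 323, 126, 195 and 164 CPM in E1 (log2 fold change 1.98, SE 0.36, adjusted p = 8.2e-05). *Vim* was at 2.48, 3.61, 5.45, 10.4 and 6.55 CPM in C and 14.7, 0.456, 9.09, 8.22 and 31.5 CPM in E1 and did not pass the test (adjusted p = 0.13 from edgeR). *Lcn2*, often taken as a reactive marker, had no read in C, and 1.25, 5.92, 0, 0 and 1.69 CPM in E1, close to the limit of counting. *Hspb1*, a small heat-shock protein, and *Osmr*, a receptor of oncostatin M, had no read in C and were at least 7.03-fold and 6.15-fold higher. Of the other MCAO-reactive genes none had a mean above 24.1 CPM in E1.

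In the chain from interleukin-6 family receptors over STAT3 to C/EBP factors 10 of 20 genes were higher and 1 lower (median log2 fold change 2.97, or 1.93 with bounds). *Stat3* (ENSMUSG00000004040, chromosome 11, 100885098 to 100939540) had 166, 165, 137, 138 and 121 CPM in C and 717, 398, 631, 546 and 746 CPM in E1 (log2 fold change 2.06, SE 0.24, adjusted p = 2.1e-09). *Socs3*, its feedback inhibitor, was at 0.942 CPM or less in C and at 35.8, 68.4, 56.9, 17.8 and 149 CPM in E1 (log2 fold change 6.92, SE 0.96, adjusted p = 2.7e-07). *Cebpd* (ENSMUSG00000071637, chromosome 16, 15887286 to 15891031), a STAT3 target and acute-phase factor, had 15.4, 9.19, 11.2, 7.22 and 5.15 CPM in C and 86.9, 171, 160.4, 78.8 and 169.8 CPM in E1 (log2 fold change 3.79, SE 0.52, adjusted p = 1.7e-07). Values of the 3 genes did not overlap between groups. *Bcl3*, a nuclear partner of NF-kappaB, and *Junb*, an AP-1 subunit, rose by 6.46 and 3.85, and the antisense transcript *Gm16174* at the *Bcl3* locus was at least 11.03-fold higher. *Cntfr*, the receptor subunit for ciliary neurotrophic factor, was the lower gene of the chain, at 153 ± 19.8 CPM in C and 56.4 ± 45.1 CPM in E1, with replicate 2 (136 CPM) inside the range of C.

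Complement genes gave 8 higher and 1 lower of 23 tested, and 4 higher in the fit of the 10 libraries alone. *C4b* (ENSMUSG00000073418, chromosome 17, 34728380 to 34743882), of the classical and lectin pathways, had 4.96, 24.3, 23.5, 19.1 and 21.1 CPM in C and 401, 208, 893, 709 and 576 CPM in E1 (log2 fold change 4.89, SE 0.44, adjusted p = 6.0e-13), and its near-identical neighbour *C4a* had 4.23, 5.92, 57.7, 27.1 and 22.5 CPM in E1, so reads may pass between the pair. The C1 inhibitor *Serping1* had 1.88 CPM or less in C and 18.4, 48.3, 32, 17.1 and 45.3 CPM in E1 (log2 fold change 6.11, SE 0.93, adjusted p = 2.5e-06), and *Cd59a*, which blocks the membrane attack complex, rose by 1.79. *C3* was at 7.44, 0, 3.44, 0 and 6.55 CPM in C and 6.72, 5.92, 7.51, 1.03 and 17.4 CPM in E1 (adjusted p = 0.50 from edgeR), a difference within the spread of the libraries. *Clu*, a secreted chaperone and complement inhibitor, was lower (-1.16 ± 0.25 on the log2 scale), with replicate 2 at 678 CPM and the other E1 libraries at 129 to 274 CPM.

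Chemokines changed in both directions. Of 25 tested genes 6 were higher and 2 lower, against 2 higher in the fit of the 10 libraries alone and 3 without C replicate 1, 2, 4 or 5 or E1 replicate 5. *Cxcl10* (ENSMUSG00000034855, chromosome 5, 92346638 to 92348889), which attracts T cells, had 0, 0, 2.58, 0.314 and 0 CPM in C and 20.9, 70.6, 13.04, 6.85 and 44.4 CPM in E1 (log2 fold change 5.43, SE 1.14, adjusted p = 0.00065). *Ccl2*, which attracts monocytes, had no read in C and 0.996, 30.99, 8.69, 2.40 and 8.44 CPM in E1, at least 9.07-fold higher, with replicate 2 far above the others. *Cxcl9* reached 5.01 CPM at most. *Cxcl14*, a chemokine abundant in C, had 393, 459, 349, 497 and 562 CPM in C and 116, 385, 58.1, 101 and 127 CPM in E1 (log2 fold change -1.52, SE 0.27, adjusted p = 3.5e-05), and *Cx3cl1*, whose receptor is on microglia, fell by 1.47 on the log2 scale without overlap.

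NF-kappaB components gave 6 higher and 1 lower of 24 genes (median log2 fold change 0.55, or 0.26 with bounds). *Rela* (ENSMUSG00000024927, chromosome 19, 5637483 to 5648130), the p65 subunit, had 58.99, 51.5, 62.5, 53.7 and 63.6 CPM in C and 148, 122, 136, 135 and 103 CPM in E1 (log2 fold change 1.15, SE 0.20, adjusted p = 2.3e-05), a modest rise without overlap. *Csf1*, the growth factor of microglia, rose by 1.66, whereas the adhesion molecule *Vcam1*, which resting astrocytes express, was at 202, 148, 177, 212 and 278 CPM in C and 60.5, 162, 37.1, 25.7 and 51.5 CPM in E1 (log2 fold change -1.60, SE 0.32, adjusted p = 0.00027). *Il1b*, an interleukin made mainly by myeloid cells, had no read in C and 0.996, 15.5, 9.48, 46.6 and 3.65 CPM in E1, highest in replicate 4. Among 22 innate sensors and adaptors 3 were higher and 1 lower, the RNA sensors *Ifih1* (2.90 ± 0.55) and *Ddx58* (2.66 ± 0.56) and the nucleic-acid sensor *Zbp1* (4.76 ± 0.99) being higher. *Irf3*, a factor activated by these sensors that starts interferon production, was lower at E1, with 35.04 ± 1.32 CPM in C and 16.98 ± 8.96 CPM in E1 (n = 5 each, adjusted p = 0.029 from edgeR), a call that was lost without C replicate 1 or 5 or E1 replicate 2 or 3. Of 22 cell death genes 2 were higher and 1 lower, against 2.5% higher and 3.68% lower over all genes. The 1 lower gene in each list of this paragraph is near that share and is no result about the list. *Bcl2l1*, which protects cells from apoptosis, rose by 1.31 and its relative *Bcl2* fell by 1.16, and *Casp8* was at 7.88 CPM in replicate 4 and at 0.456 CPM or less elsewhere. Among 25 cytokine receptors, 3 were higher and 1 lower, and 5 higher without E1 replicate 3. *Il1r1*, the interleukin-1 receptor, had no read in C and 4.98, 0, 2.77, 3.08 and 10.7 CPM in E1. *Il33*, an alarmin that oligodendrocytes and astrocytes of the cord contain, had 288, 371, 784, 432 and 344 CPM in C and 935, 617, 1699, 1392 and 1594 CPM in E1 (log2 fold change 1.49, SE 0.40, adjusted p = 0.010), and overlapped between groups. In the adhesion and T cell co-signalling list 3 of 18 genes were higher and 1, *Vcam1*, lower. *Icam1* reached 7.31 CPM at most, and *Lgals9* rose by 3.25.

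Genes by which astrocytes carry out their resting functions were lower at E1, with 27 of 45 homeostatic markers lower and none higher (median log2 fold change -1.16) against 3.68% lower over all genes. Between the groups 3 of the 45 did not overlap, all lower in E1, against 2.32% of all genes lower without overlap. In E1 replicate 2, 42 of the 45 were at or above the lowest C value and 12 above all C values, whereas in replicates 1, 3, 4 and 5 between 38 and 42 of the 45 lay below all C values. Without it 39 were lower, and without replicate 3 the number was 13, as also in the fit of the 10 libraries alone. The mean of log2(CPM + 1) over the list was 8.98 to 9.41 in C, and 8.08, 9.27, 7.07, 7.28 and 7.69 in E1 replicates 1 to 5. In the same order the summed oligodendrocyte markers were 42730, 27390, 63210, 45930 and 34380 CPM, against 14770 to 42960 CPM in C. Among the E1 libraries replicate 3 had the highest oligodendrocyte sum and the lowest astrocyte mean, and replicate 2 the lowest sum and the highest mean. C replicate 3, with an oligodendrocyte sum of 42960 CPM close to that of E1 replicate 1, had an astrocyte mean of 8.98 against 8.08. The part of oligodendrocyte transcripts in the lower values of the list was not tested. In bulk libraries, fewer cells of a type and less RNA per cell cannot be told apart.

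*Aldh1l1* (ENSMUSG00000030088, chromosome 6, 90486427 to 90600203), a folate enzyme used as a general astrocyte marker, was among the 3 homeostatic markers without overlap, with 82.8, 73.8, 47.01, 69.4 and 93.1 CPM in C and 30.4, 45.1, 11.5, 26.7 and 19.1 CPM in E1 (log2 fold change -1.46, SE 0.33, adjusted p = 0.0016). *Btbd17* (ENSMUSG00000000202, chromosome 11, 114791217 to 114795945) went from 716, 796, 524, 902 and 990.2 CPM in C to 159, 395, 50.2, 94.2 and 173 CPM in E1 (log2 fold change -2.17, SE 0.30, adjusted p = 2.4e-07). *Fgfr3* (ENSMUSG00000054252, chromosome 5, 33721674 to 33737068), a growth factor receptor of astrocytes, had 1442, 1133, 914, 1319 and 1650 CPM in C and 449, 947, 132, 278 and 375 CPM in E1 (log2 fold change -1.57, SE 0.30, adjusted p = 0.00014), replicate 2 alone reaching the range of C. The same held for *Gja1*, the main gap junction protein, at 1143, 1170, 847, 994 and 1013 CPM in C and 323, 1092, 143, 101 and 227 CPM in E1 (log2 fold change -1.46, SE 0.41, adjusted p = 0.014). The synapse-modulating protein *Sparcl1* was at 6858 ± 1081 CPM in C and 2424 ± 1870 CPM in E1 (-1.50 ± 0.27 on the log2 scale), the lipid metabolism gene *Acsbg1* at 965 ± 189 CPM in C and 358 ± 313 CPM in E1 (-1.43 ± 0.28), and the glutamate carrier *Slc25a18* fell by 1.83.

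The glutamate transporter genes *Slc1a2* and *Slc1a3* and the water and potassium channel genes *Aqp4* and *Kcnj10* were not DEGs. *Slc1a2*, the main glutamate transporter, had 4128, 3518, 2750, 4486 and 3920 CPM in C and 2657, 6098, 951, 1267 and 1600 CPM in E1 (log2 fold change -0.58, SE 0.27, adjusted p = 0.16). Its highest value of all 10 libraries was that of E1 replicate 2. *Slc1a3*, which encodes GLAST, gave -0.93 ± 0.27 on the log2 scale with an adjusted p of 0.021, short of the required fold change, and so did *Atp1b2* (-0.92 ± 0.29, adjusted p = 0.037 from edgeR). For *Aqp4*, the water channel of vascular endfeet, values were 965, 975, 834, 989 and 1014 CPM in C and 685, 1690, 235, 352 and 508 CPM in E1 (adjusted p = 0.38). *Kcnj10*, the potassium channel Kir4.1, had 586, 570.4, 842, 713 and 729.5 CPM in C and 588, 750.2, 561, 557 and 369 CPM in E1 (adjusted p = 0.27). In replicate 3, *Kcnj10* was at 561 CPM against a lowest C value of 570.4, whereas *Aqp4* was at 235 CPM against 834. Replicate 3 also had the largest oligodendrocyte sum (63210 CPM), and the part of other cell types in the *Kcnj10* values was not tested.

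**Figure D3:**
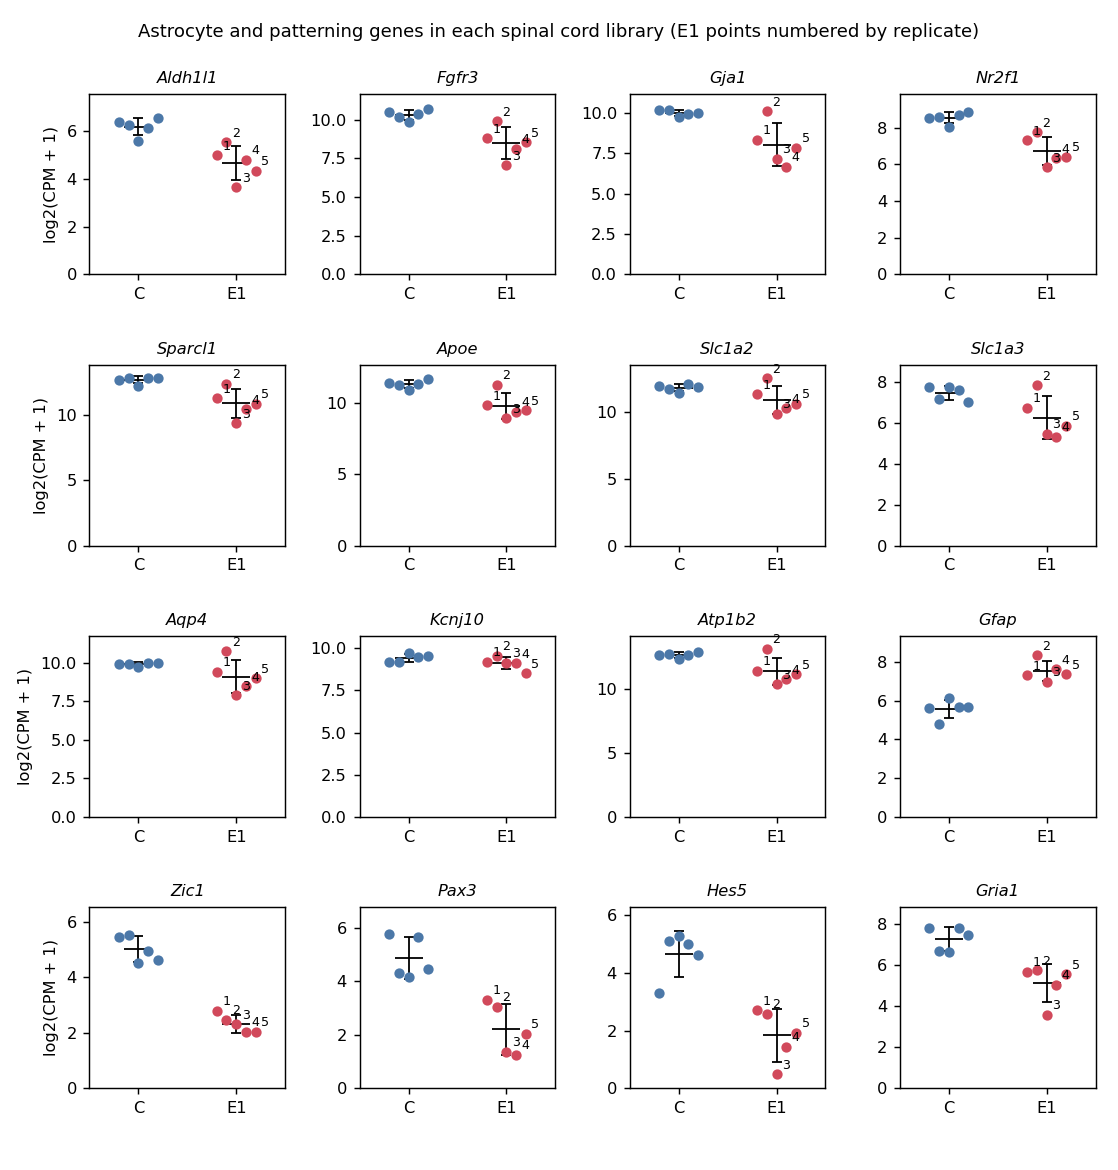
Expression as log2(CPM + 1) of 16 astrocyte and patterning genes in each of the 5 C (blue) and 5 E1 (red, numbered by replicate) libraries, with the mean and SD as black bars. Replicate 2 lies within or above the range of C for *Slc1a2*, *Aqp4*, *Kcnj10*, *Atp1b2*, *Slc1a3* and *Gja1*, while *Zic1*, *Pax3*, *Hes5* and *Gria1* are below all C values in all 5 E1 libraries.

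In related functional lists a minority of the genes was lower. Of 36 ion and neurotransmitter transport genes 13 were lower and none higher (median log2 fold change -0.92), with 21 lower without E1 replicate 2 and 8 without E1 replicate 3. They included the cation channel gene *Trpm3* (-1.62 ± 0.35). *Gria1* (ENSMUSG00000020524, chromosome 11, 57011387 to 57330244), an AMPA receptor subunit of astrocytes and neurons, had 227, 103, 100.3, 222 and 175 CPM in C and 50.5, 53.3, 11.1, 32.2 and 46.4 CPM in E1 (log2 fold change -2.09, SE 0.29, adjusted p = 1.9e-07), and here replicate 2 was as low as the others. *P2ry1*, the ATP receptor behind calcium waves, fell by 1.63 without overlap. In the list of synapse-organizing and synapse-pruning genes 6 of 31 were lower and 2 higher. *Mfge8*, a bridge for engulfment, had 112, 184, 117, 156 and 198 CPM in C and 56.2, 64.3, 46.2, 68.5 and 30.4 CPM in E1 (log2 fold change -1.53, SE 0.24, adjusted p = 2.9e-06), and *Slitrk2* fell by 1.48. Of 13 blood-brain barrier genes 3 were lower, *Gja1*, the angiogenic factor *Vegfa* (-1.69 ± 0.36) and the lipase gene *Pld2* (-1.05 ± 0.34), and 1 without E1 replicate 3, 4 or 5. Of 27 growth factors and vascular signals 5 were lower and 1, *Pdgfa* (1.29 ± 0.33), higher, with 3 lower without C replicate 1 and 2 without E1 replicate 3. *Hbegf* fell by 1.11 without overlap and *Ednrb*, the endothelin receptor, by 1.14.

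Transcription factors and developmental pathways that pattern the cord were lower in part, and several of these genes were low in all 5 E1 libraries. *Zic1* (ENSMUSG00000032368, chromosome 9, 91358058 to 91365810), a factor of the dorsal neural tube, had 42.6, 45.3, 21.8, 30.1 and 23.9 CPM in C and 5.97, 4.56, 3.95, 3.08 and 3.09 CPM in E1 (log2 fold change -2.96, SE 0.33, adjusted p = 8.6e-10), the smallest p of all lower genes. *Pax3* (ENSMUSG00000004872, chromosome 1, 78101267 to 78197134), another dorsal factor, had 53.5, 19.03, 16.9, 49.3 and 21.1 CPM in C and 8.96, 7.29, 1.58, 1.37 and 3.09 CPM in E1 (log2 fold change -2.81, SE 0.38, adjusted p = 1.1e-07). Both kept their E1 libraries below every C library, replicate 2 included. Of 24 astrocyte transcription factors 9 were lower and none higher (median log2 fold change -0.87), 15 without E1 replicate 2, 4 without E1 replicate 3 and 5 without E1 replicate 4. *Nr2f1* (ENSMUSG00000069171, chromosome 13, 78188973 to 78199757) had 369.8, 384, 267, 418 and 465 CPM in C and 158, 216, 56.1, 79.8 and 84.1 CPM in E1 (log2 fold change -1.68, SE 0.26, adjusted p = 3.2e-06). *Sox2* fell by 1.41, and *Hes5*, a target of Notch, by 3.10, both without overlap, while *Id4* and *Dbx2* fell by 2.03 and 1.14 with overlap. In the list of Notch, hedgehog, Wnt and BMP genes 11 of 34 were lower and none higher (median -1.06, or -0.92 with bounds). *Gli1* (ENSMUSG00000025407, chromosome 10, 127329882 to 127341974), the transcriptional readout of hedgehog signalling, had 3.47, 2.62, 4.30, 6.59 and 3.28 CPM in C and 0, 0, 0, 0.685 and 0 CPM in E1, with 2 reads left over the 5 E1 libraries (ratio 0.0314, 95% counting interval 0.00372 to 0.119). The Notch ligand *Jag1* (-2.11 ± 0.47), the Wnt receptor *Fzd2* (-2.56 ± 0.45) and the Wnt effector *Tcf7l1* (-1.38 ± 0.32) fell too. Of the 34, 6 were lower without E1 replicate 3, 7 without C replicate 1, E1 replicate 1 or E1 replicate 5, and 15 without E1 replicate 2.

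Of the Hox genes 1 of 26, *Hoxa9*, was lower (log2 fold change -2.54, SE 0.75, adjusted p = 0.024), with 58.5, 54.1, 21.5, 54.95 and 48.7 CPM in C and 10.2, 6.84, 3.56, 11.7 and 8.44 CPM in E1. This share is near the 3.68% of all genes, and no Hox gene was called without C replicate 1, 4 or 5 or E1 replicate 3. The median log2 fold change of the 26 was -1.43 and 7 did not overlap between groups, against 2.32% of all genes. Their sum was lower in E1 (1132 ± 219 CPM in C and 502 ± 151 CPM in E1, exact two-sided permutation test over all regroupings of 5 and 5, p = 0.00794, the smallest it can give, adjusted p = 0.034 over 13 sums, n = 5 each), and the adjusted p was 0.052 with RLE scaling or library totals. The replicate block gave 11 lower Hox genes and the fit of the 10 libraries 6, so the number depends on the fit.

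Among the genes with the largest decreases were several at low levels. *Ccdc8*, a growth-related protein, had 11.4, 30.8, 16.1, 19.8 and 18.2 CPM in C and 0.747, 2.28, 0, 0 and 0 CPM in E1 (log2 fold change -5.05, SE 0.72, adjusted p = 4.7e-07). The serine protease *Tmprss7* had 4.96, 4.26, 3.15, 21.4 and 2.81 CPM in C and none in E1, at least 7.07-fold lower, and the neuropeptide receptor *Npy2r* at least 5.59-fold. The manganese exporter *Slc30a10* (-3.56 ± 0.48), the acetyltransferase *Nat8* (-3.07 ± 0.42), the tubulin glycylase *Ttll3* (-3.34 ± 0.47) and the noncoding *Sox1ot* (-4.24 ± 0.66) had no overlap. At higher levels *Tagln3* had 204, 120.1, 109, 142 and 148 CPM in C and 52.3, 28.7, 28.8, 21.9 and 42.2 CPM in E1 (log2 fold change -2.04, SE 0.24, adjusted p = 2.5e-09), and the matrix protein *Vwa1* fell by 1.75. Further noncoding and unnamed transcripts with large decreases, *Gm37644*, *Gm43321*, *Gm37524*, *C230085N15Rik* and *Gm26621*, were at 1.15 to 24.6 CPM in C and at 0.996 CPM or less in E1, but overlap an annotated gene on their own strand, so that their counts are uncertain. The hormone receptor gene *Prlr* went from 11.1 ± 9.26 to 0.249 ± 0.557 CPM, *Exd1* from 12.4 ± 6.42 to 0.456 ± 0.534 CPM, and *F730043M19Rik* from 7.54 ± 5.69 to 0.249 ± 0.557 CPM (mean ± SD, n = 5 each).

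Metabolic lists moved in different directions. Of 25 genes of glycolysis and glycogen 9 were lower and none higher (median log2 fold change -0.86), with 5 lower without E1 replicate 3, 4 without E1 replicate 4 and 0 with glmTreat, which tests against a log2 fold change of 1. *Pygb* (ENSMUSG00000033059, chromosome 2, 150786735 to 150831758), a glycogen phosphorylase, had 453, 423, 246, 376 and 483 CPM in C and 209, 224, 90.9, 117 and 117 CPM in E1 (log2 fold change -1.39, SE 0.21, adjusted p = 2.2e-06). *Eno1* fell by 1.86 without overlap, and *Gys1*, which makes glycogen, and *Tpi1* fell by 1.22 and 1.06. In the lactate list 3 of 15 genes were lower, *Pygb*, *Ldhb* (-1.16 ± 0.25) and *Ldha* (-1.21 ± 0.40), and the median was -0.50, or 0 with bounds. Cholesterol synthesis gave 4 higher and none lower of 19 genes (median 0.42). *Hmgcs1* (ENSMUSG00000093930, chromosome 13, 119690379 to 119708260), an early enzyme of the pathway, had 771, 842, 983, 741 and 590.5 CPM in C and 2075, 1039, 1933, 1961 and 1822 CPM in E1 (log2 fold change 1.17, SE 0.23, adjusted p = 0.00021). *Cyp51* (1.16 ± 0.22), *Pmvk* (1.21 ± 0.27) and *Hsd17b7* (1.13 ± 0.27) were the other three. Replicate 2 was the lowest E1 library for all 4, and it also had the smallest oligodendrocyte sum of the E1 libraries (27390 CPM). Oligodendrocytes make cholesterol too, and their part was not tested.

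Among 30 genes of lipid handling 4 were lower and 1 higher, with 1 lower without E1 replicate 3 and 3 higher without C replicate 3 or E1 replicate 2. *Apoe* (ENSMUSG00000002985, chromosome 7, 19696109 to 19699188), the main lipid carrier secreted by astrocytes, had 2579, 2437, 1845, 2538 and 3177 CPM in C and 910.5, 2413, 474, 659.7 and 704 CPM in E1 (log2 fold change -1.28, SE 0.35, adjusted p = 0.011), with replicate 2 at the level of C. *Apod*, a lipocalin that oligodendrocytes and astrocytes express, had 580.5, 1229, 1774, 748 and 986 CPM in C and 2730, 1818, 6506, 6114 and 6395 CPM in E1 (log2 fold change 2.15, SE 0.40, adjusted p = 0.00010), and *Cyp7b1* fell by 1.24. Of 28 metallothioneins and antioxidant genes 5 were higher and 1 lower, with 3 higher without C replicate 1 or 5 or E1 replicate 5 and 3 lower without E1 replicate 2. *Hmox1* (ENSMUSG00000005413, chromosome 8, 75093621 to 75100589), which degrades heme, had 9.91, 15.8, 16.3, 12.6 and 16.4 CPM in C and 53.5, 58.8, 124, 82.9 and 111 CPM in E1 (log2 fold change 2.59, SE 0.35, adjusted p = 1.6e-07). *Fth1*, the ferritin heavy chain that stores iron, rose by 1.56, *Txnrd1* by 1.15 and *Gpx1* by 1.09, while *Sod3*, a secreted antioxidant enzyme, fell by 1.57. The unfolded protein response gave 4 higher and none lower of 25 genes. *Hspa5* (ENSMUSG00000026864, chromosome 2, 34771970 to 34777547), the main chaperone of the endoplasmic reticulum, had 966, 1522, 1015, 884 and 1391 CPM in C and 2801, 1980, 3614, 2633 and 3211 CPM in E1 (log2 fold change 1.30, SE 0.23, adjusted p = 5.3e-05), and its partners *Dnajb11*, *Sdf2l1* and *Creld2* rose by 1.10, 2.45 and 1.30. Without E1 replicate 3 the list had 1 higher gene, and without C replicate 1 or 4 it had 2. Of the 13 respiratory chain genes of the mitochondrial genome 0 were DEGs in edgeR and 0 in DESeq2, with 1 lower at an unadjusted p under 0.05 in edgeR (median 0.13).

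Of 23 cytoskeleton genes 7 were higher and none lower. *Tmsb4x* (ENSMUSG00000049775, chromosome X, 167207093 to 167209315), which sequesters actin, had 590.4, 949, 969, 586 and 319.6 CPM in C and 3263, 2371, 3691, 1408 and 5221 CPM in E1 (log2 fold change 2.22, SE 0.53, adjusted p = 0.0029), and *Tagln2* and *S100a6* rose by 3.35 and 1.65 without overlap. *S100a11* had no read in C and 15.5 CPM at most in E1. *Tubb3* (ENSMUSG00000062380, chromosome 8, 123411424 to 123422015), a tubulin known from neurons, had 9.91, 8.20, 42.4, 4.71 and 21.99 CPM in C and 251.9, 167, 712, 449.8 and 310.4 CPM in E1 (log2 fold change 4.42, SE 0.58, adjusted p = 6.6e-08). The other called neuronal markers were lower (1 or 0 of them without C replicate 1, 2 or 5 or E1 replicate 3 or 4), *Snap25* by 1.19, *Syt1* by 1.80 and *Slc17a6* by 2.76, and the 15 neuronal markers together summed to 589 ± 135 CPM in C and 674 ± 109.7 CPM in E1 (exact permutation test, adjusted p = 0.47). Matrix, protease and scar genes gave 4 higher and 6 lower of 39, with 11 lower without E1 replicate 2 and 3 without E1 replicate 3 or 4. Of these genes 2 were higher without C replicate 3 or 5 or E1 replicate 3 or 4, and 1 without E1 replicate 5. *Mmp14* (ENSMUSG00000000957, chromosome 14, 54431612 to 54445364), a membrane-bound protease, had 543, 311, 284, 448 and 449.7 CPM in C and 90.3, 222, 45.4, 45.2 and 92.2 CPM in E1 (log2 fold change -2.04, SE 0.34, adjusted p = 1.7e-05), and the proteoglycans *Bcan* and *Ncan* fell by 1.63 and 1.39. *Adamts1*, a protease that cuts proteoglycans, rose by 1.59 without overlap, and *Tnc*, tenascin C, was at 3.47, 7.54, 0, 0.628 and 5.15 CPM in C and 21.2, 0, 7.11, 7.19 and 50.3 CPM in E1 (log2 fold change 2.42, SE 0.66, adjusted p = 0.010).

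Cell cycle genes were higher in 7 of 34 cases and lower in none (median log2 fold change 1.12). *Top2a* (ENSMUSG00000020914, chromosome 11, 98992943 to 99024189), a topoisomerase of dividing cells, had 20.8, 12.5, 1.15, 0.314 and 7.96 CPM in C and 55.5, 26.4, 17.8, 98.3 and 132 CPM in E1 (log2 fold change 3.01, SE 0.77, adjusted p = 0.0058). *Cdk1* had 3 reads in C and 20.2, 0, 3.56, 19.5 and 30.1 CPM in E1 (ratio 77.2, 95% counting interval 26.1 to 377), and *Mki67* was at 3.47, 0, 0, 0 and 0 CPM in C and 3.98, 0, 1.58, 23.3 and 24.5 CPM in E1 (log2 fold change 4.15, SE 1.26, adjusted p = 0.026). *Birc5*, which acts in mitosis, and *Ccnd1*, which drives entry into the cycle, rose by 3.41 and 1.90, and *Ube2c* had 1 read in C and 2.77 to 7.75 CPM in E1. Replicate 2 had no read of *Cdk1*, *Mki67* or *Birc5*, and without it 9 genes of the list were higher. Which cells divided cannot be told from bulk libraries, and the 8 markers of oligodendrocyte precursors summed to 2107 ± 423 CPM in C and 2582 ± 330.2 CPM in E1 (exact permutation test, adjusted p = 0.12), with 0 of 8 DEGs in edgeR and in DESeq2 and 1 higher at an unadjusted p under 0.05. Of 27 immediate early genes, which also respond to tissue dissociation, 4 were higher and none lower. *Fos* had 1.49, 2.62, 7.45, 0.314 and 0.936 CPM in C and 31.6, 20.96, 30.02, 17.1 and 67.8 CPM in E1 (log2 fold change 3.63, SE 0.61, adjusted p = 1.7e-05), *Fosl2* rose by 3.32, and *Atf3* had no read in C and 10.97 CPM at most.

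Markers of other cell types were summed in each library, and E1 minus C was tested by exact two-sided permutation over all regroupings of the 10 libraries with adjustment over 13 sums (n = 5 each). The sort excluded CD11B+ and CD45+ cells. The 20 myeloid markers summed to 26.7 ± 11.9 CPM in C and 106 ± 54.8 CPM in E1 (exact permutation test, adjusted p = 0.034), but the adjusted p was 0.069 with RLE scaling or library totals. Of these markers 5 were higher and none lower, with 3 higher without C replicate 2, 3 or 4 or E1 replicate 2 and 2 without E1 replicate 4. *Ptprc*, the gene of CD45, had 2 reads in C and 3.98, 18.2, 9.48, 11.99 and 21.9 CPM in E1 (ratio 88, 95% counting interval 24.0 to 732), and *Laptm5* rose by 3.24. *Lyz2*, lysozyme, had no read in C and 0.249, 0.456, 5.92, 30.1 and 2.53 CPM in E1, of which 1 library held most. *Fcer1g* and *Ccr2* were highest in replicate 2, at 16.4 and 22.8 CPM, and *Ms4a7* and *Mrc1* had no read in E1. The 11 neutrophil markers summed to 1.02 ± 0.944 CPM in C and 9.72 ± 2.42 CPM in E1 (exact permutation test, adjusted p = 0.034, or 0.052 with RLE scaling or library totals), with *S100a9* at 5.97, 10.5, 1.98, 4.80 and 4.50 CPM and *S100a8* at 8.22 CPM at most in E1, and *Ngp*, *Camp*, *Mmp8*, *Cxcr2* and *Mpo* at 0. The 18 T and NK cell markers summed to 34.2 ± 6.20 CPM in C and 44.4 ± 22.6 CPM in E1 (exact permutation test, adjusted p = 0.47), with 2 members higher in edgeR, *Ms4a4b* and *Cd2*, and 4 in DESeq2. At an unadjusted p under 0.05 in edgeR 10 were higher and 1 lower. *Cd3d*, *Cd3g*, *Trbc1*, *Gzmb* and *Nkg7* had no read in C and were counted in E1. *Cd8a* had no read in E1, and *Cd3e*, *Ifng* and *Il17a* none in either group. The 8 B and plasma cell markers summed to 7.36 ± 11.8 CPM in C and 60.8 ± 59.3 CPM in E1 (exact permutation test, adjusted p = 0.12), of which *Ighm* made up nearly all, with 16.4, 33.7, 147, 94.2 and 3.94 CPM in E1, while *Ms4a1*, *Cd79b* and *Pax5* were at 0. The part of these cells in the MHC class II, chemokine and Fc receptor values was not tested.

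Of the oligodendrocyte markers 4 of 12 were higher and none lower (median log2 fold change 1.11), with 7 higher without C replicate 3 or with the replicate block, and 2 without C replicate 1 or 4 or E1 replicate 3. Their sum was 22730 ± 11560 CPM in C and 42730 ± 13550 CPM in E1 (exact permutation test, adjusted p = 0.12). *Cldn11* (ENSMUSG00000037625, chromosome 3, 31149920 to 31164324), a tight junction protein of myelin, had 475, 765, 1543, 574 and 674 CPM in C and 3038, 1894, 6736, 3998 and 3828 CPM in E1 (log2 fold change 2.27, SE 0.43, adjusted p = 0.00017), and *Mobp*, *Ermn* and *Mag* rose by 2.17, 1.55 and 1.22. The sum was at 14770 CPM or more in every C library, and which cells held these transcripts was not tested. The sums of 9 endothelial markers (10.6 ± 3.16 CPM in C and 18.8 ± 9.06 CPM in E1, adjusted p = 0.12), 10 of pericytes and fibroblasts (138 ± 41.9 CPM in C and 80.5 ± 63.8 CPM in E1, adjusted p = 0.24), 10 of ependymal cells (43.4 ± 18.4 CPM in C and 35.0 ± 12.8 CPM in E1, adjusted p = 0.51) and 6 of Schwann cells (867 ± 341 CPM in C and 1024 ± 389.8 CPM in E1, adjusted p = 0.51) had 0 DEGs in edgeR. At an unadjusted p under 0.05, edgeR had 1 higher endothelial gene, 2 lower pericyte genes, 1 higher and 2 lower ependymal genes and 0 Schwann cell genes. Over all genes 6107 of 23324 were under that limit. DESeq2 called 1 lower gene each among the pericyte and ependymal markers. Erythrocyte markers summed to 3.15 ± 2.05 CPM in C and 21.6 ± 32.8 CPM in E1 (exact permutation test, adjusted p = 0.50), and *Hbb-bs*, adult beta globin, was at 46.2 and 15.2 CPM in replicates 4 and 5 and at 0.747 CPM or less in the other three.

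**Figure D4:**
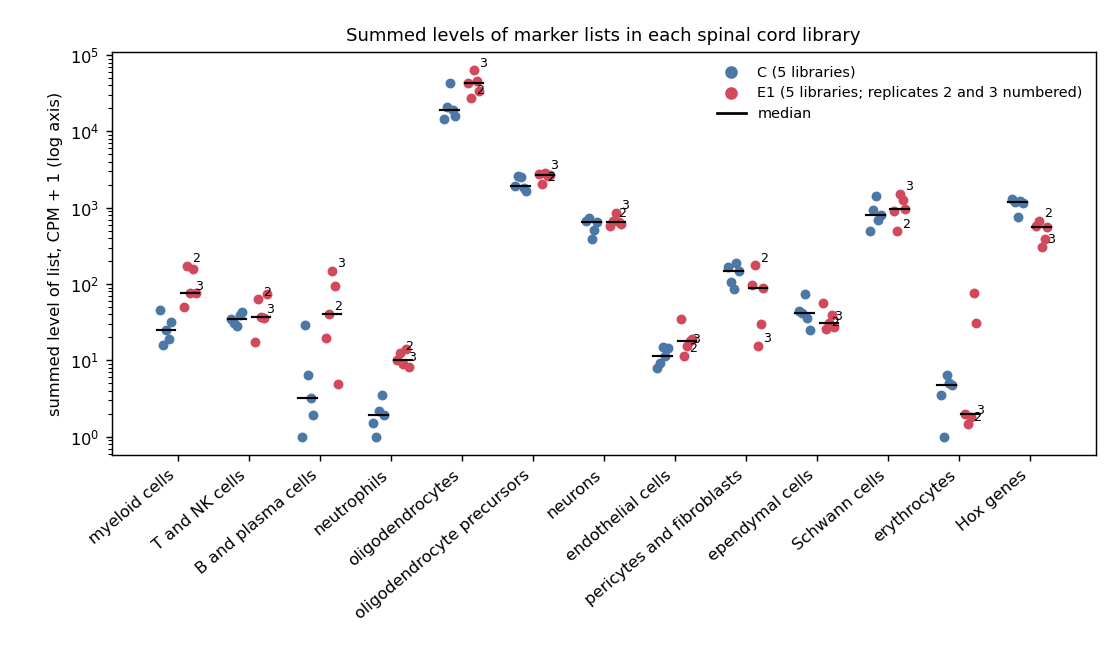
Summed level of each marker list (CPM + 1, log axis) in each of the 5 C (blue) and 5 E1 (red) libraries, with the median of each group as a black bar and E1 replicates 2 and 3 numbered. Myeloid and neutrophil sums of all E1 libraries lie above those of C, the Hox sums lie below, and the other sums overlap.

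Whether the response belonged to the spinal cord was examined against the hindbrain of the same disease score (6 E1 and 5 C libraries for each of GLAST- and GLAST+ astrocytes). These libraries also came from C57BL/6J mice under the same treatments. First numbers in the titles recur in part between cord and hindbrain libraries, so that some may share mice. The labels do not say so, and the fit took all libraries as independent. The difference between the responses, tested as an interaction in the same edgeR fit, passed for 50 genes (0.214%) against hindbrain GLAST- astrocytes, 16 of them higher (0.0686%) and 34 lower (0.146%) in the cord. Against hindbrain GLAST+ astrocytes 463 passed (1.99%), 144 of them higher (0.617%) and 319 lower (1.37%). Of the 1440 DEGs of the spinal cord 47 and 284 were among them. Hindbrain astrocytes had 150 DEGs (0.643%) in the GLAST- and 347 (1.49%) in the GLAST+ isolate, with 148 and 297 of them higher, and 2 (0.00857%) and 50 lower. The count of 50 was 388 without E1 replicate 2, 111 without E1 replicate 1 and 119 without C replicate 3, and 18 to 45 without any one of the other 7 libraries. The count of 463 was 1056 without E1 replicate 2 and 204 to 632 without any other library, so both depend on single libraries.

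For interferon genes few differences between regions passed the test. Of the 50 type I genes 32 were higher in hindbrain GLAST- and 31 in hindbrain GLAST+ astrocytes, with medians of 3.45 and 3.16 against 3.55 in the cord, and 0 and 3 of the 50 differed in response. Of the 25 MHC class I and 25 GTPase genes 0 differed in response from either isolate in edgeR, and DESeq2 called 1 MHC class I gene lower against GLAST+. At an unadjusted p under 0.05, the response of 5 and 3 of them was larger in the cord than in hindbrain GLAST- astrocytes, and that of 9 and 3 larger and of 1 and 1 smaller than in GLAST+ astrocytes. The share of all genes under that limit is not reported here. *Irf1* rose by 4.78 ± 0.52 in the cord, 3.17 ± 0.48 in hindbrain GLAST- and 3.39 ± 0.49 in hindbrain GLAST+ astrocytes (log2 ± SE). *Serpina3n* rose more in the cord than in hindbrain GLAST+ astrocytes by 2.56 ± 0.70 (adjusted p = 0.036), and the difference from GLAST- was 1.93 ± 0.68 (adjusted p = 0.19). *Ifit3* differed from GLAST+ by 3.68 ± 0.77 (adjusted p = 0.0056) and from GLAST- by 2.19 ± 0.79 (adjusted p = 0.20). For *Gfap*, which rose by 2.94 ± 0.37 and 3.46 ± 0.38 in the hindbrain isolates, the differences of -0.96 ± 0.49 (adjusted p = 0.42) and -1.48 ± 0.49 (adjusted p = 0.085) did not pass.

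The homeostatic markers differed in response for 2 (GLAST-) and 12 (GLAST+) of 45, all with a lower value in the cord. DESeq2 called 11 and 17, and 29 and 31 were lower at an unadjusted p under 0.05 in edgeR, a limit for which the share of all genes is not reported here. In the hindbrain isolates themselves 0 of the 45 were DEGs in edgeR (medians -0.07 and -0.07), 3 were lower in each at an unadjusted p under 0.05, and DESeq2 called 1 lower in GLAST- and 0 in GLAST+. The oligodendrocyte list had medians of 1.22 and 1.24 in the hindbrain isolates, with 2 and 3 of 12 genes higher. Its summed level in the hindbrain libraries is not reported here, and the part of oligodendrocyte transcripts in the difference between regions was not tested. For *Fgfr3* the response in the cord minus that in the hindbrain was -1.69 ± 0.40 (adjusted p = 0.046) against GLAST- and -1.41 ± 0.40 (adjusted p = 0.0463) against GLAST+. For *Nr2f1* the differences were -1.45 ± 0.35 (adjusted p = 0.0497) and -1.46 ± 0.35 (adjusted p = 0.018). For *Zic1* the differences were -2.94 ± 0.42 (adjusted p = 2.7e-05) and -2.85 ± 0.42 (adjusted p = 1.8e-05), with -0.02 ± 0.26 and -0.11 ± 0.26 in the hindbrain isolates themselves. *Pax3* (-1.99 ± 0.48, adjusted p = 0.0497), *Nat8* (-2.56 ± 0.54, adjusted p = 0.016), *Ccdc8* (-4.43 ± 0.88, adjusted p = 0.010), *Ttll3* (-3.56 ± 0.59, adjusted p = 0.00047), *Gria1* (-1.84 ± 0.38, adjusted p = 0.015), *Vwa1* (-1.41 ± 0.33, adjusted p = 0.038) and *Cxcl14* (-1.82 ± 0.36, adjusted p = 0.010) fell more in the cord than in hindbrain GLAST- astrocytes.

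A small number of genes rose more in the cord than in both hindbrain isolates. *Lbh* (ENSMUSG00000024063, chromosome 17, 72918305 to 72941947), a transcriptional cofactor, had 132, 105, 149, 107 and 108 CPM in C and 439, 234, 688, 448 and 663 CPM in E1 (log2 fold change 2.04, SE 0.23, adjusted p = 1.5e-09), against 0.09 ± 0.22 and -0.30 ± 0.21 on the log2 scale in hindbrain GLAST- and GLAST+ astrocytes. The differences were 1.95 ± 0.31 (adjusted p = 0.00036) and 2.34 ± 0.31 (adjusted p = 1.7e-06). *Bmp2k*, a kinase gene, rose from 51.6 ± 16.3 to 221 ± 72.3 CPM, and the differences were 1.89 ± 0.35 (adjusted p = 0.0038) and 2.65 ± 0.35 (adjusted p = 1.7e-06). *Hmox1* differed by 2.00 ± 0.46 (adjusted p = 0.037) and 2.04 ± 0.46 (adjusted p = 0.0099). *Tnc* differed by 4.04 ± 0.88 (adjusted p = 0.024) and 3.79 ± 0.83 (adjusted p = 0.0090), with -1.62 ± 0.59 and -1.38 ± 0.52 in the hindbrain isolates and with no read in E1 replicate 2 of the cord. *Tubb3* differed from GLAST+ by 4.20 ± 0.78 (adjusted p = 0.0016) but from GLAST- by 1.99 ± 0.76 (adjusted p = 0.23), which did not pass. *Hmgcs1*, *Cyp51* and *Hspa5* differed from GLAST+ by 1.08 ± 0.31 (adjusted p = 0.0467), 1.21 ± 0.30 (adjusted p = 0.019) and 1.10 ± 0.32 (adjusted p = 0.0463).

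**Figure D5:**
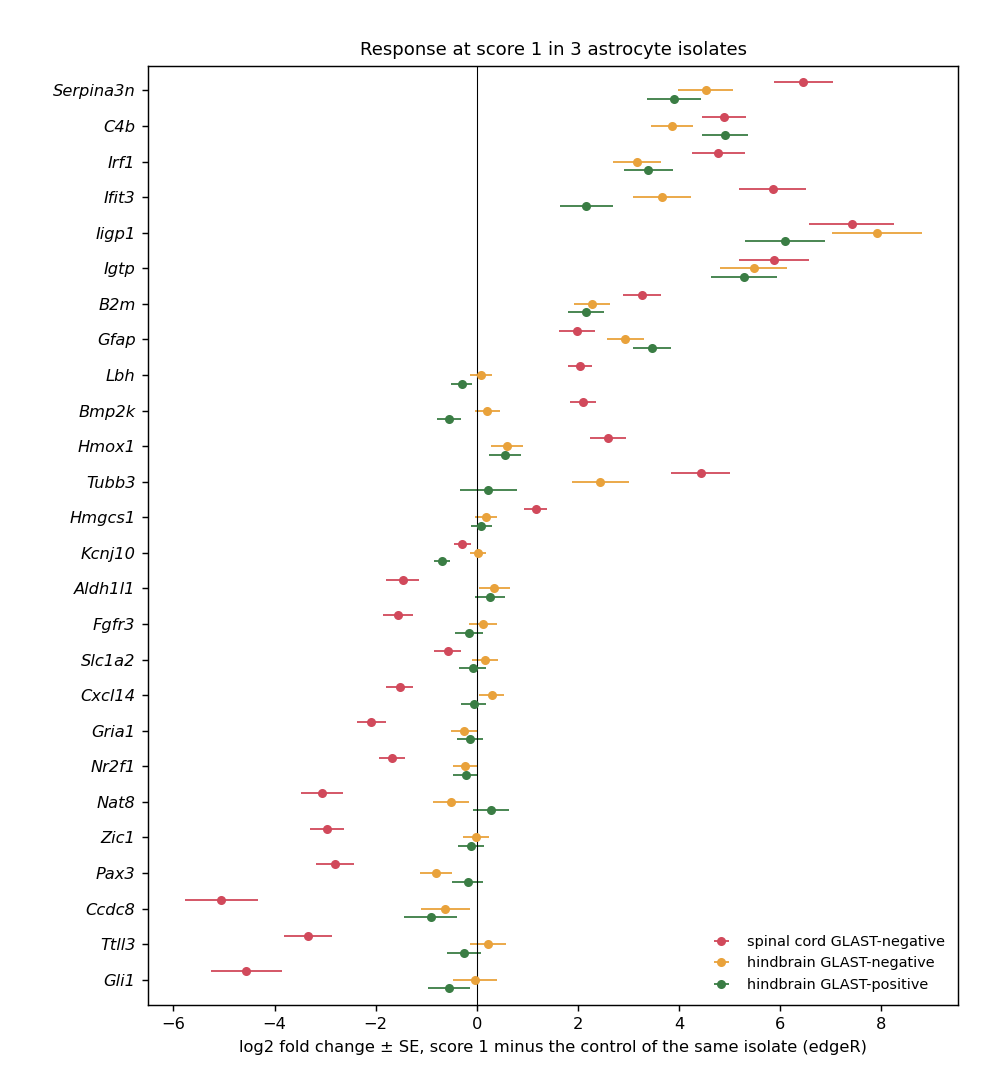
Log2 fold change with SE at score 1 against the controls of the same isolate for 26 named genes, in spinal cord (red), hindbrain GLAST- (orange) and hindbrain GLAST+ (green) astrocytes. *Irf1* lies at 4.78, 3.17 and 3.39 in the 3 isolates, whereas *Lbh* lies at 2.04, 0.09 and -0.30 and *Zic1* at -2.96, -0.02 and -0.11.

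Score 1 was then placed against score 4 (E4, complete paralysis of the hind legs, 6 libraries), using the E1 libraries as the base. Between them 1121 genes (4.81%) differed, 194 higher (0.832%) and 927 lower (3.97%) at E4, and 681 without E1 replicate 2. Since the E1 libraries enter both this comparison and that with C, a high or low E1 value moves both, in opposite directions. The last numbers of the titles of E4 (26 to 69) and E1 (27 to 79) overlap in part. With a covariate that split all libraries into title numbers under 57 and others, 429 genes passed. Of the E1 libraries of the cord only replicate 3 (27) was under 57, and of the E4 libraries of the cord only replicate 3 (69) was not. The split thus nearly follows the stage, and the covariate can hardly tell stage and title number apart. What the last numbers of the titles stand for is not given in the labels, and their part in the difference was not tested further. Few interferon genes differed between the stages. Of the 50 type I genes 1 was higher at E4 and none lower. Of the 25 GTPases 0 differed in edgeR, with 3 higher at an unadjusted p under 0.05 and 1 higher in DESeq2, and of the 25 MHC class I genes 2 were higher, *B2m* by 1.57 ± 0.34 (adjusted p = 0.00067) and *H2-D1* by 1.55 ± 0.38 (adjusted p = 0.0039). *Serpina3n* differed by -0.01 ± 0.44 (adjusted p = 1.0) and *Stat3* by -0.22 ± 0.22 (adjusted p = 0.65).

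With the split of title numbers as covariate, 35 of the 45 homeostatic genes were lower at E4 than at E1. That split nearly follows the stage, so numbers with it can hardly separate stage from title number. Without the covariate 38 of the 45 were lower (median log2 fold change -2.96, E4 minus E1). This included *Aqp4* (-3.04 ± 0.33, adjusted p = 2.4e-11), *Slc1a2* (-2.90 ± 0.27, adjusted p = 2.6e-13) and *Atp1b2* (-3.29 ± 0.30, adjusted p = 7.7e-14), which were not DEGs at E1. *Gja1* (-3.48 ± 0.41, adjusted p = 9.1e-10) and *Fgfr3* (-3.36 ± 0.30, adjusted p = 5.3e-14) were lower again, whereas *Kcnj10* (-0.23 ± 0.16, adjusted p = 0.44) gave no call at either step. The part of other cell types in the *Kcnj10* values was not tested here either. *Zic1* (-1.59 ± 0.40, adjusted p = 0.0051) and *Gria1* (-2.27 ± 0.29, adjusted p = 7.2e-09) fell again, but *Pax3* (-0.42 ± 0.40, adjusted p = 0.63), *Sox2* (-0.25 ± 0.25, adjusted p = 0.65) and *Hes5* (-0.01 ± 0.48, adjusted p = 1.0) did not pass. Of the 19 cholesterol genes, 4 of which were higher at E1 than in C, 5 were lower at E4, among them *Hmgcs1* (-1.05 ± 0.21, adjusted p = 0.00033), and 3 with that covariate. MHC class II genes were higher at E4 in 5 of 13 cases, among them *H2-Ab1* by 3.42 ± 0.79 (adjusted p = 0.0018) and *H2-Eb1* by 3.42 ± 0.86 (adjusted p = 0.0054), and 1 with the covariate, while the myeloid list had 6 of 20 higher, and 1 with the covariate. *C4b* rose further by 1.16 ± 0.36 (adjusted p = 0.039) and *Hmox1* by 1.30 ± 0.32 (adjusted p = 0.0036).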

How the data were processed

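Astrocytes were sorted from spinal cord and hindbrain, and 3′ ends of RNA were sequenced from 66 libraries in 12 groups of 4 to 6. Per the submitters' processing notes and the study's methods, the authors aligned 50-base single reads with HISAT 0.1.5 to GRCm38 and deposited whole-number counts per gene made with HTSeq 0.6.1p1. Whether counting used strand is not given in the sources used here. Of 192 named genes 66 overlap an annotated gene on the other strand and 37 one on their own strand, and reads of such pairs cannot always be told apart. Reads without identifiers of the molecule can be copies of each other. Each of the 10 libraries held 1857684 to 4144607 counts.

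From the counts, 23324 of 48526 genes with at least 10 reads over the 66 libraries were fitted in 12 groups by edgeR 4.0.16 (R 4.3.3) with TMM scaling and the quasi-likelihood test, with Benjamini-Hochberg adjustment over all genes. DEGs had an adjusted p under 0.05 and a fold change past 2 in either direction (1 and -1 on the log2 scale). Differences between isolates were interaction contrasts in that fit. Marker sums were compared by exact permutation (Python 3.11.15, numpy 2.4.6, scipy 1.17.1). On simulated counts for 22500 genes, of which 200 changed 4-fold, 71.5% were recovered in the comparison of E1 with C, with 3 false calls. The changed genes were drawn from those at 5 CPM or more. All other genes had the same mean in every group, and no library stood apart. The false calls therefore do not give the error rate in the real libraries. Where all libraries of a group had no read, a fold is given as a lower bound against 3 reads in each library. Symbols were known for 23221 of the 23324 identifiers.

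Named genes were the 12 highest and 12 lowest fold changes among DEGs without overlap and with a mean of 5 CPM or more, the 8 smallest p in each direction, up to 5 DEGs of each of 47 lists by p, a panel of reactive and astrocyte genes, and up to 5 DEGs by p for each interaction. The comparison, genes and lists were chosen with earlier results of these data known. Marker and list members that were not among the tested genes are not analysed here, and some members are not reported here. Promoter windows of RefSeq (GRCm38.p6, 250 bases before to 50 after the start) were matched by symbol for 13961 of 23319 tested symbols. Alternatives were DESeq2 1.42.0, RLE or total scaling, other filters, glmTreat, the 10 libraries alone, a replicate block, a covariate, and leaving out each library in turn. The covariate was whether the last number of a title was under 57. No 2 libraries of C or of E1 agreed within sampling noise (chi-square per degree of freedom of at least 9.95), and columns without a sample numbered 0. Figures were drawn with matplotlib 3.10.9.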

Additional observations from a re-analysis of the deposited data

Results flagged for a closer look

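Within each group of 5 libraries, a value was singled out where its gap to the nearest library exceeded 0.710 of the range of the group. Chance alone does so for about 1 in 20 groups if values are normally distributed, which CPM need not be. In a group with reads in only 1 library, such as *Mki67* in C, the gap is the whole range by construction. Many genes were screened, so a part of the values below can arise by chance. Replicate 2 gave most of the separate values in E1. It stood above the other E1 libraries for *Acsbg1* (909 CPM), *Apoe* (2413 CPM), *Atp1b2* (9215 CPM), *Bcan* (719.6 CPM), *Ccl2* (31.0 CPM), *Ccr2* (22.8 CPM), *Cd2* (18.7 CPM), *Clu* (678 CPM), *Cntfr* (136 CPM), *Cxcl14* (385 CPM), *Gja1* (1092 CPM), *Gm4841* (33.7 CPM), *Gm4951* (78.4 CPM), *Lcn2* (5.92 CPM), *Mmp14* (222 CPM), *Slc10a6* (11.4 CPM), *Sod3* (66.5 CPM), *Vcam1* (162 CPM) and *Vegfa* (258 CPM). It stood below them for *Hmgcs1* (1039 CPM). C replicate 1 was the separate highest library of its group for *Fosl2* (6.94 CPM), *Mki67* (3.47 CPM), *Tap1* (24.8 CPM) and *Zbp1* (4.96 CPM). C replicate 1 was the separate lowest library of its group for *C4b* (4.96 CPM) and *Txnrd1* (8.43 CPM). C replicate 2 was the separate highest library of its group for *Ighm* (23.6 CPM). C replicate 3 was the separate highest library of its group for *Cldn11* (1543 CPM), *Cxcl10* (2.58 CPM) and *Sdf2l1* (10.3 CPM). C replicate 3 was the separate lowest library of its group for *Aqp4* (834 CPM), *Hoxa9* (21.5 CPM) and *Sparcl1* (4987 CPM). C replicate 4 was the separate highest library of its group for *Jag1* (48.04 CPM), *Serping1* (1.88 CPM) and *Tmprss7* (21.4 CPM). C replicate 5 was the separate highest library of its group for *Acsbg1* (1292 CPM) and *Clu* (920 CPM). E1 replicate 1 was the separate highest library of its group for *Ttll3* (6.22 CPM). E1 replicate 3 was the separate highest library of its group for *B2m* (1716 CPM). E1 replicate 4 was the separate highest library of its group for *Casp8* (7.88 CPM) and *Lyz2* (30.1 CPM). E1 replicate 4 was the separate lowest library of its group for *Csf1* (68.8 CPM). E1 replicate 5 was the separate highest library of its group for *Fos* (67.8 CPM) and *Sox1ot* (2.25 CPM).

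Of the summed markers, the B and plasma cells sum of 28.2 CPM in C replicate 2, the oligodendrocytes sum of 42960 CPM in C replicate 3 and the Hox genes sum of 756 CPM in C replicate 3 stood apart from the other C libraries.

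The response to EAE differed between spinal cord and hindbrain for some of the genes described, by the interaction term of edgeR (adjusted p under 0.05 and a log2 difference past 1). Values are log2 fold changes of the cord minus those of the hindbrain. Against hindbrain GLAST- astrocytes the cord was higher for *Tnc* (4.04), *Hmox1* (2.00), *Lbh* (1.95) and *Bmp2k* (1.89), and lower for *Ccdc8* (-4.43), *Ttll3* (-3.56), *Sox1ot* (-3.49), *Zic1* (-2.94), *Nat8* (-2.56), *Fzd2* (-2.52), *Pax3* (-1.99), *Gria1* (-1.84), *Cxcl14* (-1.82), *Fgfr3* (-1.69), *Nr2f1* (-1.45) and *Vwa1* (-1.41). Against hindbrain GLAST+ astrocytes it was higher for *Tubb3* (4.20), *Tnc* (3.79), *Ifit3* (3.68), *Bmp2k* (2.65), *Serpina3n* (2.56), *Lbh* (2.34), *Adamts1* (2.13), *Hmox1* (2.04), *Dnajb11* (1.30), *Cyp51* (1.21), *Hspa5* (1.10) and *Hmgcs1* (1.08), and lower for *C230085N15Rik* (-6.12), *Ccdc8* (-4.14), *Sox1ot* (-3.76), *F730043M19Rik* (-3.74), *Nat8* (-3.34), *Ttll3* (-3.08), *Zic1* (-2.85), *Pax3* (-2.63), *Slc30a10* (-2.35), *Id4* (-2.30), *Cntfr* (-2.23), *Gria1* (-1.95), *Aldh1l1* (-1.73), *Btbd17* (-1.67), *Tagln3* (-1.61), *Vwa1* (-1.55), *Vcam1* (-1.49), *Sparcl1* (-1.49), *Cxcl14* (-1.46), *Nr2f1* (-1.46), *Pygb* (-1.41), *Fgfr3* (-1.41), *Slitrk2* (-1.40), *Acsbg1* (-1.37), *Ldhb* (-1.32), *P2ry1* (-1.28), *Tpi1* (-1.18) and *Mfge8* (-1.12). For further genes 1 group of the cord held 3 reads or fewer, so that the size of the fitted difference depends on the prior count. These were *Atf3* (10.15 against GLAST+), *Gli1* (-4.52 against GLAST-), *Gli1* (-4.01 against GLAST+), *Gm43321* (-6.52 against GLAST+), *Npy2r* (-8.95 against GLAST+), *Tmprss7* (-7.81 against GLAST-) and *Tmprss7* (-6.59 against GLAST+).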

How the results depend on the processing

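Of 192 named genes 183 were DEGs, no value reversed its direction under an alternative, 86 kept their side of the threshold under all of them, and 340 of 3645 values fell short of it. The 1440 DEGs (582 higher, 858 lower) became 219 (143 and 76) when the test was made against a log2 fold change of 1 with glmTreat, and 847 (377 lower) in the fit of the 10 libraries. When 1 library was left out the counts were 954 to 1822 (408 to 732 higher, 519 to 1090 lower), the lowest without E1 replicate 3 and the highest without E1 replicate 2. The share of higher genes among DEGs was 40.4%, and 65.3% with glmTreat, 55.5% in the fit of the 10 libraries and 33.5% with library totals in place of TMM. Of the 45 homeostatic markers glmTreat called 1, of 36 transport genes 1, and of the glycolysis, lactate, cholesterol, barrier, growth factor, synapse and unfolded protein response lists 0, against 33 of 50 type I interferon genes. In the fit of the 10 libraries 5 of 25 glycolysis, 5 of 36 transport, 5 of 34 pathway, 4 of 24 transcription factor, 2 of 27 growth factor and 2 of 30 lipid genes were lower, and 4 of 34 cell cycle, 3 of 13 MHC class II and 2 of 28 antioxidant genes higher. DESeq2 gave 1801 DEGs.

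The 50 genes that differed in response from hindbrain GLAST- astrocytes became 232 with DESeq2 (41 higher, 191 lower), 81 with filterByExpr (63 lower), 115 without a filter on low counts (95 lower), 4 with glmTreat (0 higher, 4 lower), and 57 were lower with library totals. When 1 library was left out they were 18 to 388 (6 to 48 higher, 11 to 340 lower). The counts were 25 without C replicate 1, 18 without C replicate 4, 22 without C replicate 5, 25 without E1 replicate 3, 26 without E1 replicate 4 and 22 without E1 replicate 5. The 463 against GLAST+ became 715 with DESeq2 (538 lower) and 16 with glmTreat (5 and 11), and 204 to 1056 with 1 library left out (59 to 292 higher, 145 to 764 lower). Those without C replicates 1, 4 and 5 were 234, 251 and 263, and those without E1 replicates 3 and 4 were 204 and 235. The 1121 genes between E4 and E1 became 429 with the split of title numbers as covariate (32 and 397) and 493 with glmTreat (43 and 450), and 681 to 1340 with 1 library left out (97 to 284 higher, 584 to 1056 lower).

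The replicate block gave 1366 DEGs (589 higher, 777 lower) in the fit of the 10 libraries. Same-numbered libraries correlated with r of 0.11, -0.06, 0.35, -0.10 and -0.03 after removal of the group means, so the numbers were not taken to pair them. The myeloid, neutrophil and Hox sums no longer passed after adjustment with RLE or total scaling and with most single libraries left out, where smaller groups also limit the p that can be reached. Their differences with 1 library left out were 62.05 to 92.9, 7.87 to 9.30 and -724 to -582 CPM. At 1857684 to 4144607 reads per library, 3 reads corresponded to 0.747 to 1.49 CPM.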
